A study of Mus musculus with 14 samples.

Results

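The 10 genes described here mark T cells and the regulatory T cells among them: Cd3e, Cd3d, Cd3g, Cd4, Cd8a, Cd2, Icos, Foxp3, Ctla4 and Il2ra. They were chosen by name from 19938 genes measured on arrays of isolated pancreatic islets, and each is read by 1 transcript cluster, the array's set of probes for a gene. The arrays were hybridised with RNA from islets of untreated 11-week-old mice whose background mixed C57BL/6 and NMRI 1:1. The 14 arrays fall into 3 genotypes. The 5 IKK2-CA arrays came from diabetic mice that make constitutively active IKK2 in their β-cells through the driver allele Pdx-1-tTA, and that therefore also carry this driver. The 4 Pdx-1+/- arrays came from mice with the same driver, which leaves them haploinsufficient for Pdx-1. The 5 control arrays came from control mice, whose alleles the labels do not describe further. The labels place the active kinase in β-cells, whereas the T cells of an islet preparation lie among or around the endocrine cells. Nothing in the labels ties an array to a mouse of its own, so p-values here cover the spread between arrays, which may be technical.

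T cells recognise antigen through a receptor whose signal is passed on by the CD3 chains, with CD4 or CD8 as coreceptor. ICOS and CTLA-4 tune that signal: the first is a costimulatory receptor, and the other competes with CD28 for its ligands and restrains the response. Regulatory T cells depend on the transcription factor FOXP3 and carry CTLA-4 and CD25, the α chain of the interleukin-2 receptor that Il2ra encodes. In the islet, T cells are best known as the cells of insulitis in autoimmune diabetes, where regulatory T cells hold the effector cells in check.

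The mean log2 signal of each of the 10 genes was higher in IKK2-CA islets than in either other genotype, but the test over all genes called 1 of them. Il2ra rose in IKK2-CA islets against control islets, by 1.95-fold (log2 difference 0.96, SE 0.23, adjusted p = 0.0448, limma). No member passed in IKK2-CA against Pdx-1+/- islets, where Il2ra had the largest difference of the members (log2 1.10, SE 0.25, adjusted p = 0.146), and none passed in Pdx-1+/- against control islets. The 5 IKK2-CA arrays differed widely from each other: on array 5 every member lay above all 9 Pdx-1+/- and control arrays, while on array 4 Il2ra alone did. A call here means an adjusted p under 0.05 after Benjamini-Hochberg adjustment over the 19938 genes. In a whole islet preparation, a change in the number of cells of a type and a change in RNA per cell cannot be told apart.

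**Figure D1:**
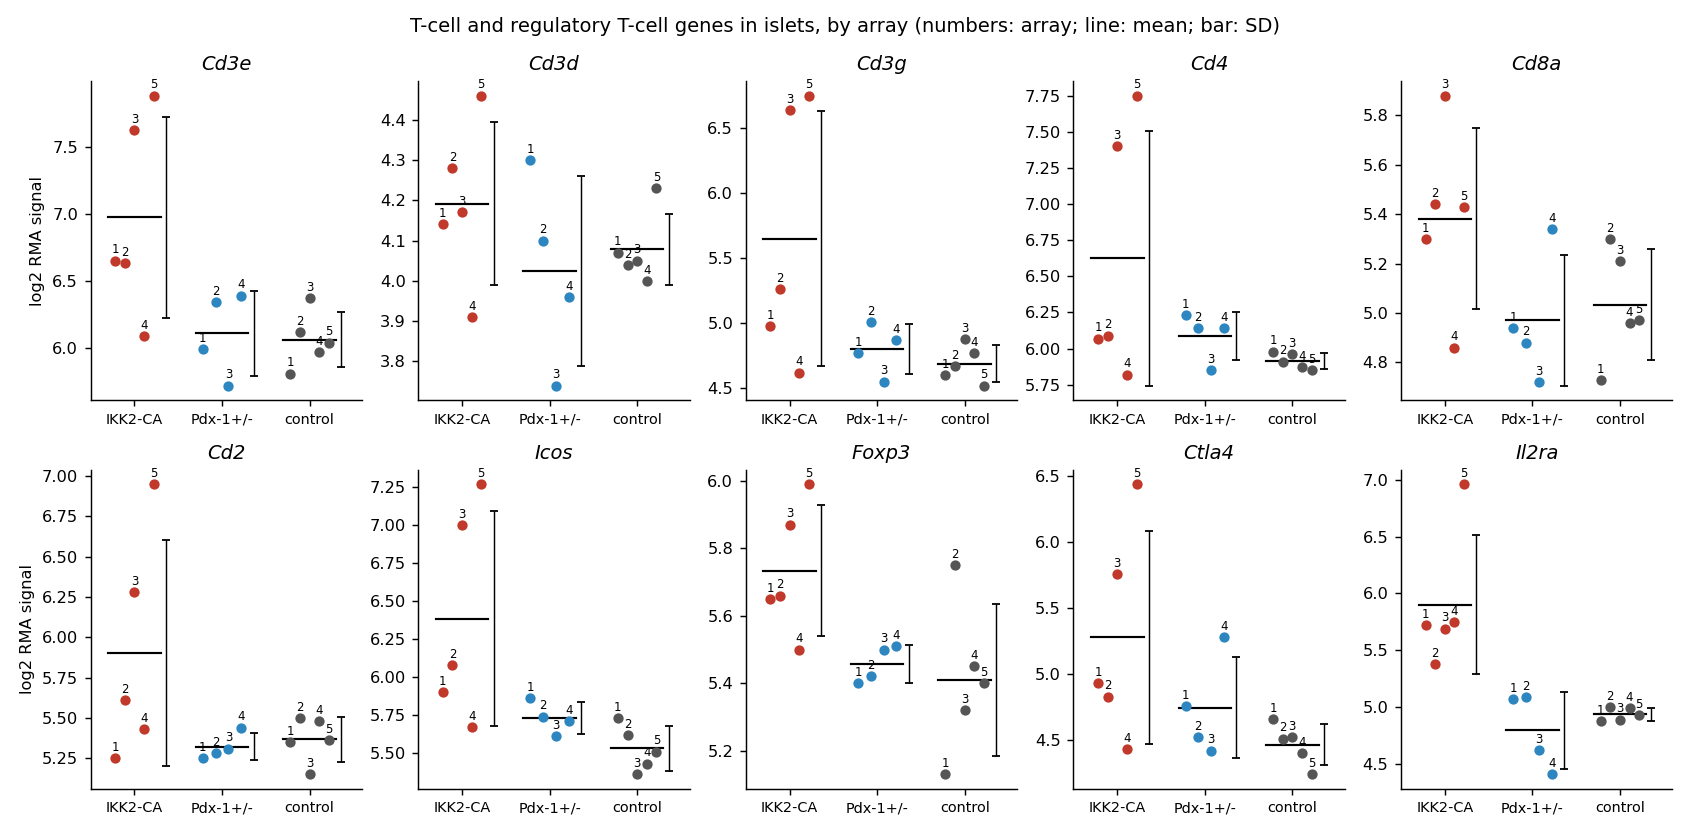
The log2 RMA signal of each of the 10 genes (vertical axis, a separate scale for each gene) is plotted for the 5 IKK2-CA, 4 Pdx-1+/- and 5 control arrays, with array numbers beside the points, the group mean as a line and the SD as a bar. For 9 of the 10 genes IKK2-CA array 5 is the highest of its group, and for Il2ra all 5 IKK2-CA arrays lie above the other 9 arrays.

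As a check of the genotypes, Pdx1 fell in IKK2-CA against control islets by 1.56 on the log2 scale (SE 0.24, adjusted p = 0.0048), and its difference in Pdx-1+/- against control islets was log2 −1.09 (adjusted p = 0.21). Ikbkb, which encodes IKK2, was at log2 0.24 in IKK2-CA against control islets (adjusted p = 0.283), on probes that need not read the transgene. The array medians over genes lay between 6.45 and 6.55, and the lowest correlation between 2 arrays was 0.964. Genes of other tissues stood out on 3 arrays: intestinal genes on Pdx-1+/- array 4 and control array 3, and adipocyte genes on IKK2-CA array 5. Cpa1, an acinar digestive enzyme, read 13.61 to 13.71 on every array, near the highest value of each, so acinar RNA was present in all. The mean signals of the 10 genes lay between the 13.8 percentile of all genes (Cd3d) and the 47.8 percentile (Cd3e), and 5 of the 10 lay in the lowest 30% of genes.

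Il2ra is described before the other members because it was called. Its product, CD25, makes the interleukin-2 receptor bind with high affinity; regulatory T cells carry it constantly, newly activated T cells carry it for a time, and mature mouse dendritic cells can carry it too. The signal was 5.72, 5.38, 5.69, 5.75 and 6.96 on IKK2-CA arrays 1 to 5, against 5.07, 5.09, 4.62 and 4.41 on Pdx-1+/- arrays 1 to 4 and 4.88, 5.00, 4.89, 4.99 and 4.93 on control arrays 1 to 5. Every IKK2-CA array was above every other array, array 5 stood far above the other IKK2-CA arrays, and the control arrays lay within 0.12 of each other. The group means were 5.90 ± 0.61 in IKK2-CA islets (SD, n = 5), 4.80 ± 0.33 in Pdx-1+/- islets (SD, n = 4) and 4.94 ± 0.05 in control islets (SD, n = 5). Il2ra was the 1 member of 10 whose groups did not overlap, in IKK2-CA against Pdx-1+/- as in IKK2-CA against control; of all genes, 1.72% and 1.86% lay above without overlap in these comparisons.

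The call of Il2ra against control islets sat close to the threshold. With IKK2-CA array 2, 4 or 5 or Pdx-1+/- array 4 left out it held, at adjusted p between 0.0183 and 0.0381, and with any of the other 10 arrays left out it was lost, at 0.0549 to 0.127. Across the 11 other settings that tested Il2ra its adjusted p ran from 0.00082 to 0.0781, and 4 of them ended the call. Without IKK2-CA array 5 the difference was log2 0.70 against control islets, and Il2ra then also passed against Pdx-1+/- islets (log2 0.83, adjusted p = 0.0164). Without the 3 arrays high for genes of other tissues it passed in both, with log2 0.68 against control islets (adjusted p = 0.0145) and an adjusted p of 0.0449 against Pdx-1+/- islets. Both comparisons use the same IKK2-CA arrays.

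The 250 bases before the start of Il2ra and of Cd3e are shown because these are the called member and the member that defines the T-cell receptor complex. Both are from RefSeq, build GRCm38.p6, written 5′ to 3′ on the gene's strand: Il2ra lies at chr2:11642542-11642791 on the plus strand and Cd3e at chr9:45009612-45009861 on the minus strand. Capitals mark matches, on either strand, to the NF-κB pattern (GGG and CC with 5 bases of any kind between them), the ETS letters AGGAAG, the GATA letters AGATAA or the RUNX letters TGTGGT.
Il2ra: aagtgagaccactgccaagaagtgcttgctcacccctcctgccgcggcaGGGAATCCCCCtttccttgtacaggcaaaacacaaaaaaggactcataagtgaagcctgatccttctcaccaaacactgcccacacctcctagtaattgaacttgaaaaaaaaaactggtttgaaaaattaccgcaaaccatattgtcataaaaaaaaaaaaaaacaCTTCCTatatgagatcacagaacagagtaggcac
Cd3e: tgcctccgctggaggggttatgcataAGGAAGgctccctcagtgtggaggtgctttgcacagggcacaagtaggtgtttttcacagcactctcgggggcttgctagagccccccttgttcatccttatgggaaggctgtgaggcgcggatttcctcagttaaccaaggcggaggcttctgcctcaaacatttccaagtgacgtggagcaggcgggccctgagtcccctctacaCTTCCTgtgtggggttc
The Il2ra window holds an NF-κB match at −201 to −192 and another on the opposite strand at −200 to −191, which overlap, and an ETS match at −34 to −29 on the opposite strand. The Cd3e window holds ETS matches at −224 to −219 and, on the opposite strand, at −17 to −12. Promoter windows were found for 7 of the 10 members, 8 windows in all. The NF-κB pattern matched in 1 of these 8, against 45.8% of all 32851 windows of this length; ETS letters matched in 5, against 29.5%; GATA letters in 2, against 9.99%; and RUNX letters in 0, against 14%. These matches describe the windows and show no binding.

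Of the CD3 chains of the T-cell receptor, Cd3e and Cd3g had the larger differences and Cd3d the smallest, and these were not tested against each other. Cd3e encodes CD3ε, which the receptor needs to reach the cell surface. It read 6.65, 6.63, 7.62, 6.09 and 7.88 on IKK2-CA arrays 1 to 5, against 5.99, 6.34, 5.72 and 6.39 on Pdx-1+/- arrays 1 to 4 and 5.81, 6.12, 6.37, 5.97 and 6.04 on control arrays 1 to 5. IKK2-CA arrays 1, 2, 3 and 5 were above all 9 other arrays, arrays 3 and 5 by the most, and array 4 lay within their range. Its log2 difference was 0.86 against Pdx-1+/- islets (SE 0.30, adjusted p = 0.493) and 0.91 against control islets (SE 0.28, adjusted p = 0.11). Neither passed, but with IKK2-CA array 4 left out Cd3e passed against control islets at adjusted p = 0.0225.

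Cd3g encodes CD3γ and lies beside Cd3d and Cd3e on chromosome 9. It read 4.98, 5.26, 6.64, 4.62 and 6.75 on IKK2-CA arrays 1 to 5, against 4.77, 5.01, 4.55 and 4.87 on Pdx-1+/- arrays 1 to 4 and 4.6, 4.67, 4.88, 4.77 and 4.52 on control arrays 1 to 5. Arrays 3 and 5 of the IKK2-CA group stood well above everything else and array 4 below most Pdx-1+/- and control arrays. The fitted difference was log2 0.85 against Pdx-1+/- islets (SE 0.36, adjusted p = 0.661) and 0.96 against control islets (SE 0.34, adjusted p = 0.166); the second passed at 0.0374 without IKK2-CA array 4.

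Cd3d encodes CD3δ and had the smallest differences of the 10. It read 4.14, 4.28, 4.17, 3.91 and 4.46 on IKK2-CA arrays 1 to 5, against 4.30, 4.10, 3.74 and 3.96 on Pdx-1+/- arrays 1 to 4 and 4.07, 4.04, 4.05, 4.00 and 4.23 on control arrays 1 to 5. The groups overlapped almost completely, and array 3, high for the other CD3 chains, was not high here. The group means differed by log2 0.17 against Pdx-1+/- islets (95% interval −0.08 to 0.42) and 0.12 against control islets (95% interval −0.12 to 0.35). Cd3d was also the dimmest of the 10, and its correlation with the mean of the other 9 members over the 14 arrays was 0.62, against 0.96 for Cd3e and 0.97 for Cd3g.

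Cd4 encodes the coreceptor of helper and most regulatory T cells, which some mouse dendritic cells carry as well. It read 6.07, 6.09, 7.40, 5.82 and 7.75 on IKK2-CA arrays 1 to 5, against 6.23, 6.14, 5.85 and 6.14 on Pdx-1+/- arrays 1 to 4 and 5.98, 5.91, 5.96, 5.87 and 5.85 on control arrays 1 to 5. IKK2-CA arrays 3 and 5 were more than 1 log2 unit above all other arrays, while the other 3 IKK2-CA arrays lay within or below the Pdx-1+/- range. The difference was log2 0.53 against Pdx-1+/- islets (SE 0.32, adjusted p = 0.836) and 0.71 against control islets (SE 0.30, adjusted p = 0.259).

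Cd8a encodes the coreceptor chain CD8α of cytotoxic T cells, found also on a subset of mouse dendritic cells. It read 5.30, 5.44, 5.88, 4.86 and 5.43 on IKK2-CA arrays 1 to 5, against 4.94, 4.88, 4.72 and 5.34 on Pdx-1+/- arrays 1 to 4 and 4.73, 5.30, 5.21, 4.96 and 4.97 on control arrays 1 to 5. Here array 3 was the highest and array 5 lay level with array 2. Its log2 difference was 0.41 against Pdx-1+/- islets (SE 0.18, adjusted p = 0.672) and 0.34 against control islets (SE 0.17, unadjusted p = 0.0605). Neither passed, and across the 11 other settings that tested Cd8a against control islets its adjusted p in limma ran from 0.135 to 0.47. The change of Cd4 less that of Cd8a, on the log2 scale and relative to the control mean, was −0.11, −0.23, 0.64, 0.09 and 1.44 on IKK2-CA arrays 1 to 5, against −0.08 to 0.41 on the Pdx-1+/- arrays and −0.27 to 0.38 on the control arrays. Cd4 thus stood further above its control mean than Cd8a did on IKK2-CA arrays 3 and 5, beyond the range of the other arrays, and the difference was not tested.

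Cd2 encodes an adhesion receptor of T and natural killer cells, found in mice on B cells too. It read 5.25, 5.61, 6.28, 5.43 and 6.95 on IKK2-CA arrays 1 to 5, against 5.25, 5.28, 5.31 and 5.44 on Pdx-1+/- arrays 1 to 4 and 5.35, 5.50, 5.15, 5.48 and 5.36 on control arrays 1 to 5. Arrays 3 and 5 were high, array 2 lay just above the other genotypes, and array 1 was as low as the lowest Pdx-1+/- array. The fitted difference was log2 0.58 against Pdx-1+/- islets (SE 0.26, adjusted p = 0.685) and 0.54 against control islets (SE 0.24, adjusted p = 0.301).

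Among the receptors that tune the response, Icos came closest to the threshold after Il2ra. It read 5.90, 6.08, 7.0, 5.67 and 7.27 on IKK2-CA arrays 1 to 5, against 5.86, 5.74, 5.61 and 5.71 on Pdx-1+/- arrays 1 to 4 and 5.73, 5.62, 5.36, 5.43 and 5.51 on control arrays 1 to 5. Every IKK2-CA array but array 4 was above all 9 other arrays. The group means differed by log2 0.65 against Pdx-1+/- islets (SE 0.26, adjusted p = 0.634) and 0.85 against control islets (SE 0.25, adjusted p = 0.0905). Against control islets Icos passed without IKK2-CA array 4 (adjusted p = 0.0245) and with array weights (adjusted p = 0.0347).

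Ctla4 lies between Cd28 and Icos on chromosome 1. It read 4.93, 4.83, 5.76, 4.43 and 6.44 on IKK2-CA arrays 1 to 5, against 4.76, 4.52, 4.42 and 5.28 on Pdx-1+/- arrays 1 to 4 and 4.66, 4.51, 4.52, 4.40 and 4.24 on control arrays 1 to 5. IKK2-CA arrays 3 and 5 were above all others, and Pdx-1+/- array 4, which was also high for intestinal genes, came next. The difference was log2 0.53 against Pdx-1+/- islets (SE 0.32, adjusted p = 0.835) and 0.81 against control islets (SE 0.30, adjusted p = 0.185).

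Foxp3 encodes the transcription factor that defines regulatory T cells. It read 5.65, 5.66, 5.87, 5.50 and 5.99 on IKK2-CA arrays 1 to 5, against 5.40, 5.42, 5.50 and 5.51 on Pdx-1+/- arrays 1 to 4 and 5.13, 5.75, 5.32, 5.45 and 5.40 on control arrays 1 to 5. The range was narrow, arrays 3 and 5 were again the highest, and control array 2 lay above IKK2-CA arrays 1, 2 and 4. Its log2 difference was 0.27 against Pdx-1+/- islets (SE 0.12, adjusted p = 0.662) and 0.32 against control islets (SE 0.11, adjusted p = 0.156). Without control array 2 Foxp3 passed against control islets at adjusted p = 0.0457. The change of Foxp3 less that of Cd3e, on the log2 scale relative to the control mean, was −1.09 and −1.24 on IKK2-CA arrays 3 and 5, −0.34 and −0.32 on arrays 1 and 2 and 0.07 on array 4, against −0.26 to 0.43 on the Pdx-1+/- arrays and −0.40 to 0.28 on the control arrays. On the arrays where the T-cell genes were highest, Foxp3 had thus moved less than Cd3e, but probes can differ in how much of a change they show.

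Set against the background of all genes, more members had a small unadjusted p than the share of genes that did. In IKK2-CA against Pdx-1+/- islets 0 of 10 members passed, where 0.0752% of all genes were called; 7 of 10 were higher at an unadjusted p under 0.05, against 4.32% of all genes, and 10 of 10 had a positive difference, against 45%. In IKK2-CA against control islets 1 of 10 rose, against 0.682% of genes that rose, and 8 of 10 were higher at an unadjusted p under 0.05, against 6.2%; 10 of 10 had a positive difference, against 46.4%. The 10 genes were picked with earlier results of these data known and share arrays, so these counts describe the members. Their median log2 difference was 0.56 against Pdx-1+/- islets and 0.76 against control islets, where the median of all genes was −0.015 and −0.012.

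**Figure D2:**
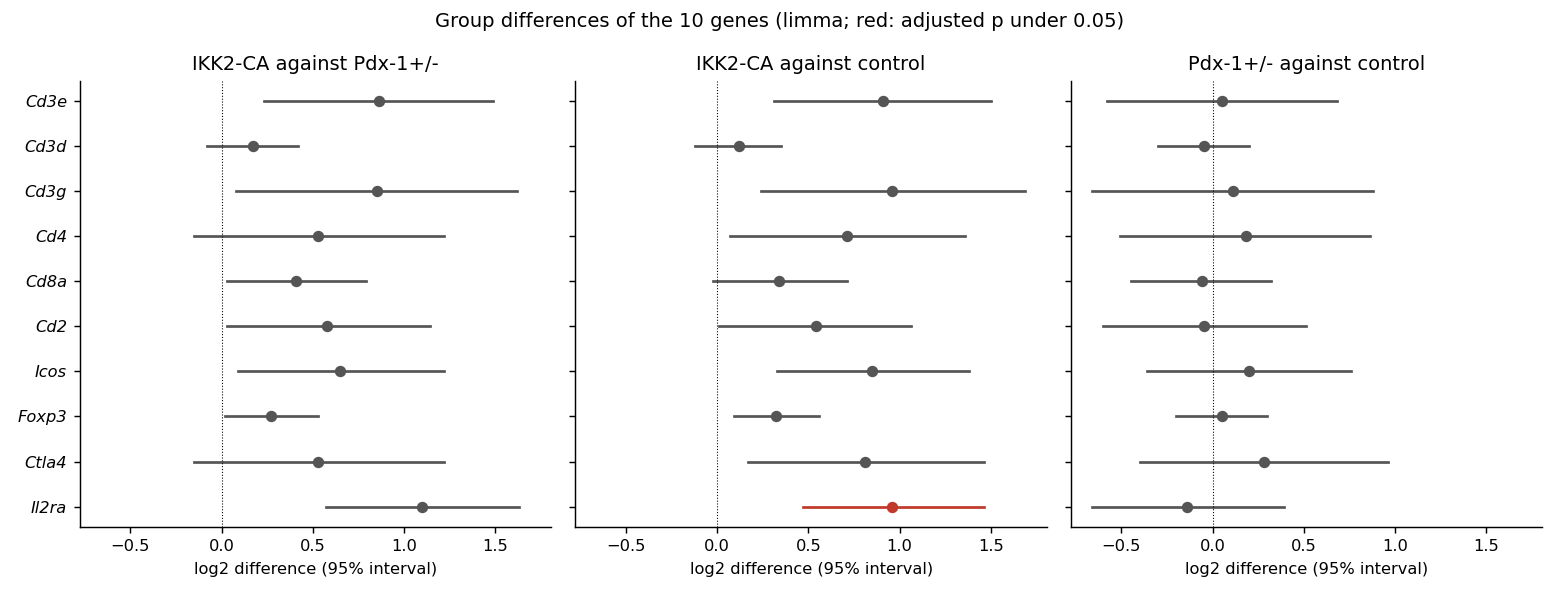
The log2 difference of each of the 10 genes (horizontal axis) is shown with its 95% interval in a panel for each of the 3 comparisons. The interval of Il2ra in IKK2-CA against control islets, 0.47 to 1.46, is drawn in red for an adjusted p under 0.05.

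Pdx-1 haploinsufficiency alone came with no detected difference in these genes. In Pdx-1+/- against control islets 0 of 10 members passed, where 0.0953% of all genes were called, and 0 of 10 had an unadjusted p under 0.05, against 4.71% of all genes. The differences ran from log2 −0.14 for Il2ra to 0.28 for Ctla4, with 6 above 0 (48.2% of all genes were), 4 below 0 and a median of 0.05, where the median of all genes was −0.0049. The adjusted p was 0.999 for every member. The interval of the Cd3e difference reached from −0.58 to 0.68, so a change of the size seen in IKK2-CA islets was beyond its upper end. For Cd4 the interval, −0.51 to 0.86, still held such a size. The fit shared a gene's spread over all genotypes, so these intervals and p-values also carry the scatter of the IKK2-CA arrays. The SD of Cd4 was 0.88 in IKK2-CA, 0.17 in Pdx-1+/- and 0.06 in control islets. Its values were 5.85 to 6.23 on the Pdx-1+/- arrays and 5.85 to 5.98 on the control arrays.

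Most members were highest on IKK2-CA arrays 5 and 3 and lowest on array 4, but not all shared that order. The number of members above all 9 other arrays was 3 on IKK2-CA array 1, 6 on array 2, 9 on array 3, 1 on array 4 and 10 on array 5. Array 4 was the lowest of the group for 8 of the 10 members; the exceptions were Cd2, lowest on array 1, and Il2ra, lowest on array 2. For Il2ra, array 4 was the second highest; for Cd8a array 3 was above array 5, and for Cd3d array 3 lay in the middle. The change of Il2ra less that of Cd3e, relative to the control mean, was 0.79 on IKK2-CA array 4 and −0.80 on array 3, against 0.20, −0.12 and 0.21 on arrays 1, 2 and 5.

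Over the 14 arrays, Il2ra correlated less with the mean of the other 9 members (r = 0.78) than with the mean of 13 dendritic cell markers (r = 0.94). For Cd3e these values were 0.96 and 0.82, for Foxp3 0.81 and 0.80, for Cd2 0.93 and 0.81, and for Cd3d and Cd8a, the least alike of the 10, 0.62 and 0.56, and 0.71 and 0.57. Without IKK2-CA arrays 5 and 3, which lie farthest from the median, Il2ra had r = 0.29 with the other members and 0.85 with the dendritic markers, and Cd3e 0.83 and 0.52. Foxp3 (0.51 and 0.56) and Cd2 (0.21 and 0.33) then also had the higher value with the dendritic markers. These are descriptions over 14 arrays that fall into groups and share RNA, and the difference between the correlations was not tested.

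**Figure D3:**
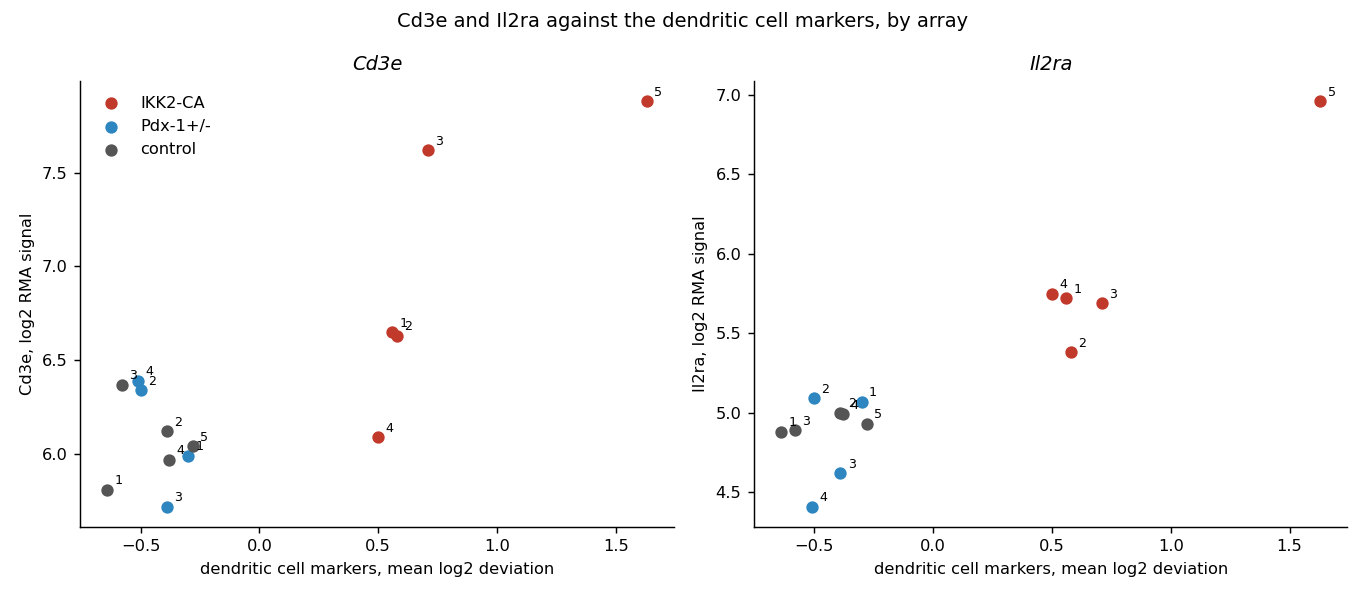
The log2 signals of Cd3e (left) and Il2ra (right) are plotted against the mean log2 deviation of the dendritic cell markers, a point for each of the 14 arrays, with the array number beside it. IKK2-CA array 4 has Cd3e at 6.09, level with the other genotypes, but Il2ra at 5.75, above all of them.

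In the wider T-cell lists 1 to 3 genes of a list rose in IKK2-CA against control islets, that is 1 of 22, 2 of 22, 3 of 20 and 2 of 14 measured genes, where 0.682% of all genes rose. Of 25 genes of T-cell receptor signalling, 22 were measured and 1 rose in IKK2-CA against control islets, while 21 of the 22 had a positive difference (median log2 0.32), 11 had an unadjusted p under 0.05 and 0 passed against Pdx-1+/- islets in limma (median 0.28; 7 at an unadjusted p under 0.05). The gene that rose was Rasgrp1, which activates Ras downstream of the receptor, at log2 1.48 (SE 0.31, adjusted p = 0.025). Its signal was 6.86, 7.32, 7.82, 7.18 and 9.15 on IKK2-CA arrays 1 to 5, against 5.87 to 6.36 on the Pdx-1+/- arrays and 6.06 to 6.34 on the control arrays. Rasgrp1 was thus higher on all 5 IKK2-CA arrays, array 4 included. Leaving out IKK2-CA array 3 or control array 1, 3, 4 or 5 ended the call (adjusted p 0.0567 to 0.0816), as did a fit of only the 2 groups compared (0.0614).

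Several other defining T-cell genes lay nearer to 0 than Cd3e. Cd247, which encodes the CD3ζ chain, was at log2 0.04 against control islets (SE 0.10, adjusted p = 0.913), with 4.87 to 5.34 on the IKK2-CA arrays, 4.87 to 5.10 on the Pdx-1+/- arrays and 4.75 to 5.21 on the control arrays. Trat1, an adaptor of the receptor, was at log2 0.13 (adjusted p = 0.587), and Zap70, the kinase that CD3ζ recruits, at 0.33 (adjusted p = 0.194). Cd8b1, the other chain of CD8, was at 0.56 (adjusted p = 0.156) and read 5.81 and 6.04 on IKK2-CA arrays 3 and 5. Thy1, which mouse T cells share with neurons and other cells, was at log2 0.18 (adjusted p = 0.611). The check of the T-cell label was therefore mixed: Cd3e, Cd3g, Cd4 and Cd8b1 were high on IKK2-CA arrays 3 and 5, and Trat1 was highest there too (3.35 and 3.50, against 2.95 to 3.28 on the other 12 arrays), while Cd3d on array 3 and Cd247 on array 3 lay within the range of the other genotypes. All of these overlapped between the groups. A log2 signal has no zero, so these values do not show whether a gene is absent.

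Of 27 genes of T-cell identity and homing, 22 were measured; 2 rose and 1 fell in IKK2-CA against control islets (median log2 0.32), and 1 rose against Pdx-1+/- islets (median 0.25). Ccr7, the receptor that guides T cells and dendritic cells to lymph nodes and stands in the dendritic list too, rose in both, by log2 1.59 against control islets (SE 0.24, adjusted p = 0.0048) and 1.62 against Pdx-1+/- islets (SE 0.26, adjusted p = 0.0257). Its second call was lost without IKK2-CA array 3, control array 1 or any of the 4 Pdx-1+/- arrays (adjusted p 0.05 to 0.139), and with only the 2 groups compared or the replicate block (up to 0.239). Cxcr6, a chemokine receptor of effector T cells, rose against control islets (log2 0.57, SE 0.13, adjusted p = 0.0358). This call was ended by 11 of the 14 single arrays when left out (all but IKK2-CA arrays 2 and 4 and Pdx-1+/- array 4). It was also ended by 5 of 11 other settings (adjusted p up to 0.105). Cxcr6 read 4.68 to 4.86 on the Pdx-1+/- arrays, above the 4.35 to 4.51 of the control arrays. Against Pdx-1+/- islets its difference was log2 0.26 (adjusted p = 0.784, limma). Satb1, a chromatin organiser of developing T cells that is not limited to them, fell by 0.86 on the log2 scale against control islets (SE 0.20, adjusted p = 0.0362). Satb1 was low in Pdx-1+/- islets as well, with means of 6.83 in IKK2-CA, 6.95 in Pdx-1+/- and 7.70 in control islets. Against Pdx-1+/- islets its difference was log2 −0.12 (adjusted p = 0.977, limma). Its call was kept without IKK2-CA array 4 or 5, Pdx-1+/- array 1, 2 or 4 or control array 2, lost without any of the other 8, and ended by 2 of 12 other settings (adjusted p up to 0.104).

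Of 22 further genes of regulatory T cells, 20 were measured; 3 rose in IKK2-CA against control islets (median log2 0.39) and 1 against Pdx-1+/- islets (median 0.25). Itgae, the integrin chain CD103, which dendritic cells carry as well, rose by log2 1.90 against control islets (SE 0.27, adjusted p = 0.00377) and 1.86 against Pdx-1+/- islets (SE 0.28, adjusted p = 0.0237). The second call ended without IKK2-CA array 3 or any of the 4 Pdx-1+/- arrays (adjusted p 0.0536 to 0.104), and with only the 2 groups compared (0.226). Il10ra, a chain of the interleukin-10 receptor found on most leukocytes, rose by 0.90 (SE 0.21, adjusted p = 0.0375), and Entpd1, the ectoenzyme CD39 of regulatory T cells and endothelium, by 0.62 (SE 0.15, adjusted p = 0.0444), both against control islets. In IKK2-CA, Pdx-1+/- and control islets Il10ra averaged 7.95, 7.37 and 7.05, and Entpd1 9.99, 9.71 and 9.37. Pdx-1+/- islets thus lay between the others for both. The Il10ra call was kept without IKK2-CA array 1, 4 or 5, Pdx-1+/- array 4 or control array 2, and the Entpd1 call without Pdx-1+/- array 2 or 4, and both were lost without any other array. Of 12 other settings, 2 ended the Il10ra call (adjusted p up to 0.0764) and 3 the Entpd1 call (up to 0.0811). Ikzf2, the transcription factor Helios that many regulatory T cells share, was at log2 −0.01 (SE 0.12, adjusted p = 0.987).

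All 14 activation and checkpoint receptors of the list were measured, with a median log2 difference of 0.61 in IKK2-CA against control islets, where 2 rose, and 0.61 against Pdx-1+/- islets, where 0 passed in limma and 8 had an unadjusted p under 0.05. Havcr2 encodes TIM-3, which exhausted T cells, dendritic cells and macrophages carry. It read 6.84, 7.18, 7.99, 7.21 and 9.24 on IKK2-CA arrays 1 to 5, against 5.69 to 6.06 on the Pdx-1+/- arrays and 5.43 to 5.94 on the control arrays, and rose by log2 1.94 against control islets (SE 0.33, adjusted p = 0.0102). Cd44, an adhesion molecule of memory T cells and many other cells, rose by 1.03 (SE 0.25, adjusted p = 0.0463), a call kept without IKK2-CA array 1, 4 or 5 or Pdx-1+/- array 4, lost without any of the other 10, and ended by 3 of 12 other settings (adjusted p up to 0.0802). Of the 5 ligands that CD28, CTLA-4, ICOS and PD-1 bind, Cd80 rose against control islets (log2 0.92, SE 0.20, adjusted p = 0.0258) and the median of the 5 was 0.69. That call ended without IKK2-CA array 3 or control array 3, 4 or 5 (adjusted p 0.0661 to 0.0874), and with the replicate block (0.0669). Against Pdx-1+/- islets 0 of the 5 passed in limma, 4 had an unadjusted p under 0.05, and the median was 0.85.

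Effector cytokines, the products of activated T cells, gave no call. Of the 13 measured, 0 passed in limma in either IKK2-CA comparison (2 in each at an unadjusted p under 0.05), with medians of log2 0.05 against control islets and 0.02 against Pdx-1+/- islets. Tnf, a cytokine that macrophages and dendritic cells make too, had the largest difference of the list, log2 0.63 against Pdx-1+/- islets (SE 0.23, adjusted p = 0.544) and 0.61 against control islets (SE 0.22, adjusted p = 0.167). Its signal was 8.10, 7.68, 8.10, 7.44 and 8.60 on IKK2-CA arrays 1 to 5, against 7.15 to 7.61 on the Pdx-1+/- arrays and 6.76 to 7.80 on the control arrays, which overlap. Ifng was at log2 0.46 against Pdx-1+/- islets (adjusted p = 0.758) and 0.24 against control islets (adjusted p = 0.69), with its highest value, 6.37, on IKK2-CA array 3. Fasl, which kills target cells through Fas, was at 0.20 and 0.17 (adjusted p = 0.657 and 0.308), and Il2, the cytokine that CD25 binds, at 0.01 and 0.05 (adjusted p = 0.997 and 0.814). Of 9 thymocyte genes 0 passed in limma (1 in each comparison at an unadjusted p under 0.05), with a median of 0.02 against control islets and 0.04 against Pdx-1+/- islets, and the 4 measured genes of γδ and innate-like T cells had medians of 0.03 and 0.08, with no call. In Pdx-1+/- against control islets 0 genes of any of these lists passed.

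Genes of other cell types moved with the T-cell genes. The mean log2 deviation of the 10 members from their 14-array means was 0.06, 0.13, 0.83, −0.19 and 1.19 on IKK2-CA arrays 1 to 5, against −0.39 to −0.09 on the Pdx-1+/- arrays and −0.31 to −0.16 on the control arrays. The same measure for 12 pan-leukocyte genes ran from −0.06 to 1.54 on the IKK2-CA arrays, against −0.45 to −0.04 on the Pdx-1+/- arrays and −0.68 to −0.10 on the control arrays, with array 4 the lowest and array 5 the highest of its group. For 14 B-cell markers it was −0.18, 0.12, 0.60, −0.46 and 0.74 on IKK2-CA arrays 1 to 5, against −0.33 to 0.37 on the Pdx-1+/- arrays and −0.37 to 0.10 on the control arrays. For 12 natural killer markers it ran from −0.17 to 0.66 on the IKK2-CA arrays, against −0.27 to 0.06 and −0.26 to 0.04 on the Pdx-1+/- and control arrays. Within the IKK2-CA group all 3 lists were highest on arrays 5 and 3 and lowest on array 4, as the mean of the T-cell genes was. On array 4 the pan-leukocyte mean, −0.06, was still above all 5 control arrays. Among the pan-leukocyte genes, Cd52 rose against control islets (log2 1.72, SE 0.29, adjusted p = 0.00926) and against Pdx-1+/- islets (log2 1.97, SE 0.31, adjusted p = 0.0257), and Lcp1 (log2 0.95, adjusted p = 0.0248) and Itgal (log2 1.08, adjusted p = 0.0443) rose against control islets. The Cd52 call against Pdx-1+/- islets ended with only the 2 groups compared or the replicate block (adjusted p up to 0.226), and single arrays left out ended it in 6 of 14 cases, that of Itgal in 9 and that of Lcp1 in 4.

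The 13 dendritic cell markers measured had another profile, with means of 0.56, 0.58, 0.71, 0.50 and 1.63 on IKK2-CA arrays 1 to 5, against −0.51 to −0.30 on the Pdx-1+/- arrays and −0.64 to −0.28 on the control arrays. All 5 IKK2-CA arrays were above the other 9, as for Il2ra. Of the 13 markers, 9 rose against control islets, where 0.682% of all genes rose. Against Pdx-1+/- islets 6 rose, where 0.0752% of all genes were called. Those that rose in both were Itgax, Xcr1, Ccl22, Ccr7, Fscn1 and Itgae, and Flt3 (log2 1.27, adjusted p = 0.0111), Clec9a (log2 1.39, adjusted p = 0.0114) and Cd209a (log2 1.47, adjusted p = 0.0188) rose against control islets. The other 4 passed in neither, so the check of the dendritic label was mixed too. In IKK2-CA, Pdx-1+/- and control islets Zbtb46 averaged 6.61, 6.60 and 6.59 and Batf3 5.53, 5.41 and 5.40. Siglech averaged 5.94, 6.04 and 5.57 and Tlr3 7.53, 6.91 and 7.01. The calls of Itgax, Xcr1, Ccl22 and Fscn1 against Pdx-1+/- islets ended with only the 2 groups compared. That of Fscn1 also ended with the replicate block. Single arrays left out ended the Xcr1 call in 9 of 14 cases (adjusted p up to 0.157). They ended those of Itgax and Fscn1 in 5 each and that of Ccl22 in 3. The Cd209a call against control islets ended without control array 3 (adjusted p = 0.0638) and with 3 arrays left out (0.091). Itgax, the dendritic cell integrin CD11c, read 7.29 to 9.36 on the IKK2-CA arrays, against 5.48 to 5.8 on the Pdx-1+/- arrays and 5.44 to 6.12 on the control arrays. Adipocyte genes averaged 2.42 on IKK2-CA array 5, where Adipoq read 10.60, and at most 0.38 on any other array, so the array with the highest T-cell genes also had the highest adipocyte genes. On IKK2-CA array 3, with the next highest T-cell genes, the adipocyte mean was −0.38. Genes of high endothelial venules and lymph node stroma averaged 0.09, 0.32, 0.85, −0.14 and 1.31 on IKK2-CA arrays 1 to 5. The range was −0.54 to 0.03 on the Pdx-1+/- arrays and −0.52 to 0.02 on the control arrays, and IKK2-CA array 4 lay within both. Madcam1, the addressin that lymphocytes bind, read 8.81 and 8.56 on IKK2-CA arrays 3 and 5 and 6.3 to 6.5 on the other 3 of the group. Madcam1 (log2 2.04, adjusted p = 0.0242) and Ccl19, a ligand of CCR7 (log2 1.49, adjusted p = 0.00715), rose against control islets. Of the 7 genes measured, 6 had a positive difference against control islets, and Chst4 was the exception. Chst4 read 7.81, 7.70, 6.55, 8.26 and 7.66 on IKK2-CA arrays 1 to 5. It read 5.85 to 8.44 on the Pdx-1+/- arrays and 7.27 to 8.92 on the control arrays. Fut7 averaged 5.24 in IKK2-CA islets and 5.1 in control islets. The Madcam1 call ended without control array 1, 3, 4 or 5 (adjusted p 0.0603 to 0.067). It also ended with only the 2 groups compared or 3 arrays left out (up to 0.084). The part of these other cells in the T-cell signals was not tested.

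**Figure D4:**
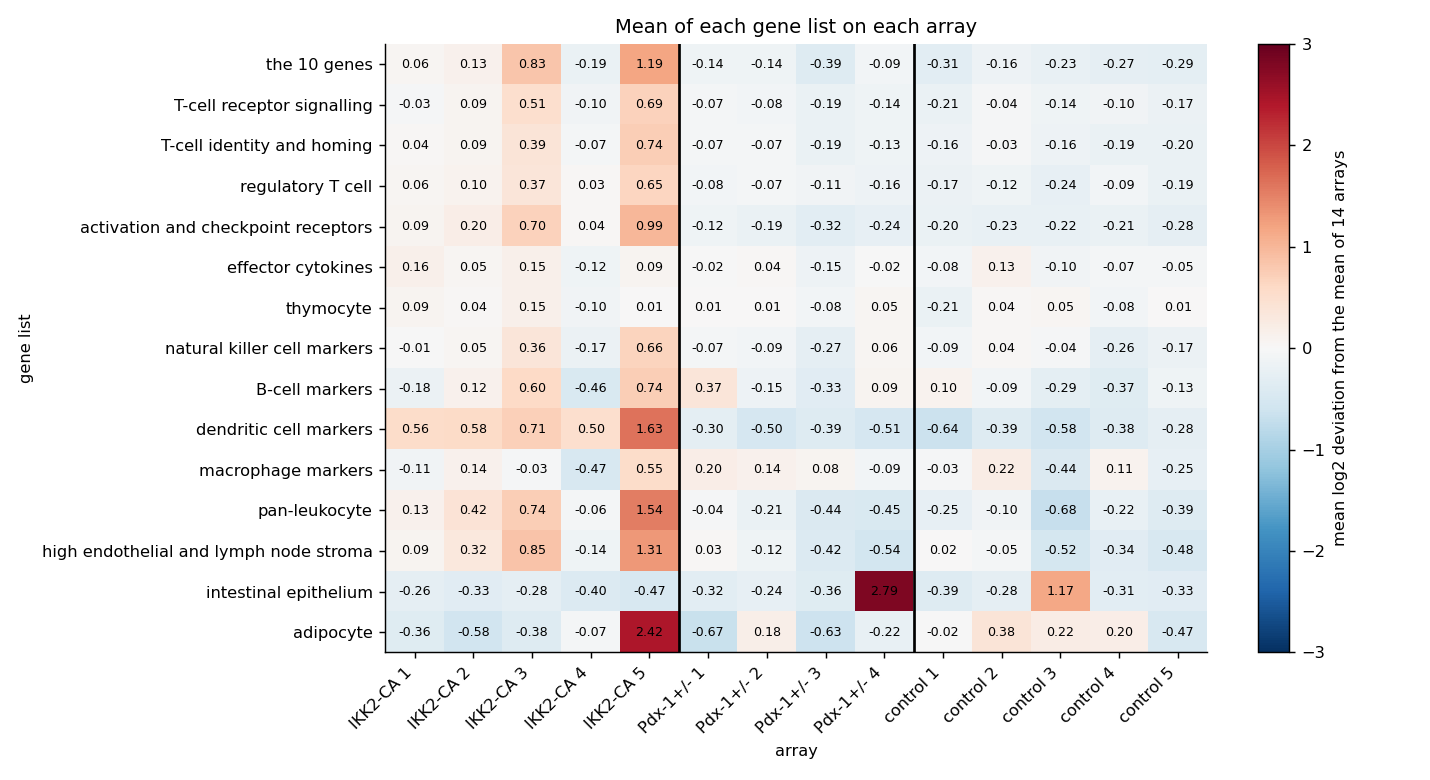
Each cell gives, for a gene list (rows) and an array (columns), the mean log2 deviation of the list's genes from their means over 14 arrays, red above and blue below 0. The row of the 10 genes reaches 0.83 and 1.19 on IKK2-CA arrays 3 and 5, while the dendritic row is at 0.50 or more on all 5 IKK2-CA arrays.

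The 10 genes whose profiles over the 14 arrays were most like the mean of the members, by Pearson correlation, were Cd40, Tlr9, Ifi213, Cd28, Nox1, Rasal3, Rac2, Ltb, Slamf6 and Tigit, with r between 0.972 and 0.989. Cd28, the costimulatory receptor of T cells, had r = 0.98, and Tigit, an inhibitory receptor of T and natural killer cells, 0.972. Cd40, the receptor on antigen-presenting cells that activated T cells engage, was the most alike (r = 0.989), and Tlr9, a sensor of unmethylated DNA in B cells and plasmacytoid dendritic cells, followed (r = 0.983). Cd40 read 6.54, 6.60, 7.67, 6.18 and 8.15 on IKK2-CA arrays 1 to 5, against 5.57 to 6.13 on the Pdx-1+/- arrays and 5.85 to 6.18 on the control arrays. Without IKK2-CA arrays 5 and 3 the 10 correlations lay between 0.687 (Slamf6) and 0.934 (Ltb), lower than over all arrays.

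**Figure D5:**
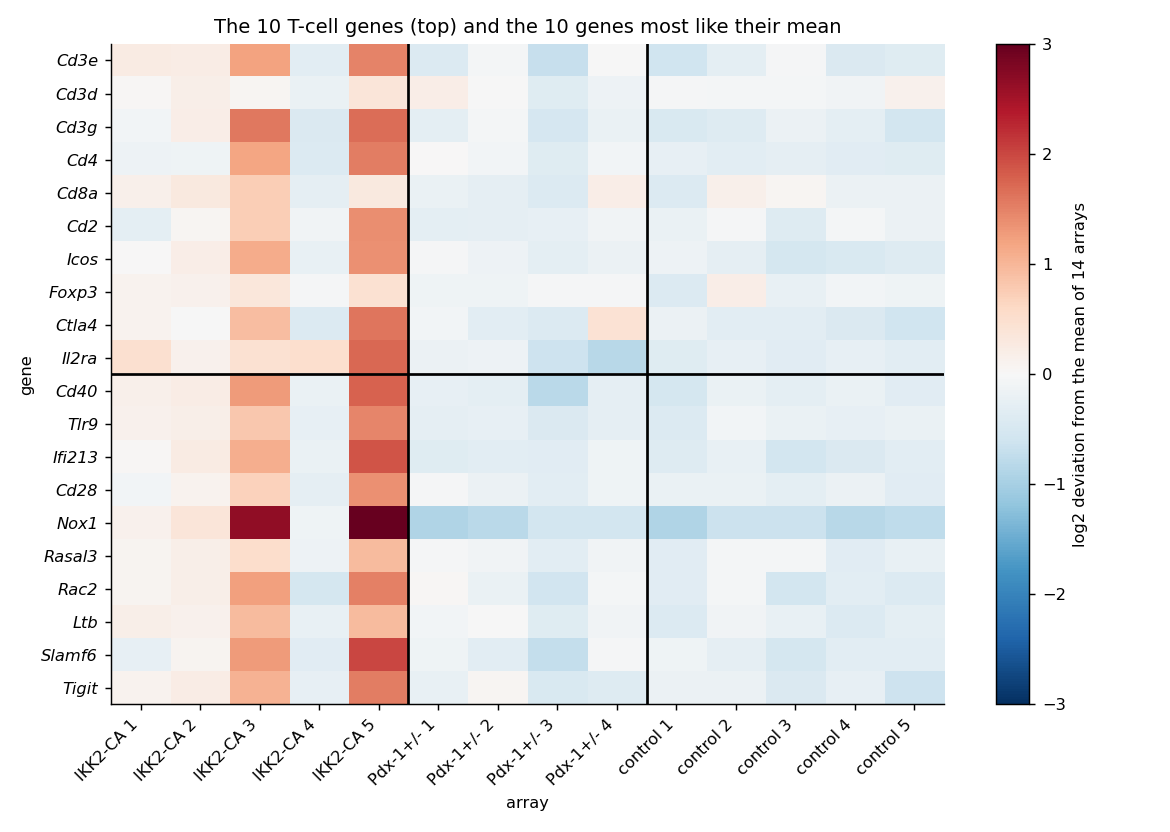
Each row is a gene, the 10 members above the line and the 10 most like their mean below it, and each column is an array; colour gives the log2 deviation from the gene's mean over 14 arrays. Most rows are darkest red on IKK2-CA array 5 and next on array 3, while the row of Il2ra is also red on array 4.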

How the data were processed

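Islet RNA was hybridised to 14 Affymetrix Mouse Gene 1.0 ST arrays. Signals were summarised by the robust multichip average (RMA), per the labels, in Affymetrix Expression Console, per the submitters' processing notes; its version was not given in these sources. The deposited values were read as log2 signals from their range, since no base is stated; they allow comparison of a gene between arrays, not of different genes. Of 35556 transcript clusters, 23410 were listed in the array's gene table and 21789 with 1 symbol were kept; 1621 with several symbols and 12146 not listed were not used here. For 999 genes with several clusters the highest mean was taken, which left 19938 genes. Group means were fitted over all 14 arrays with limma 3.58.1 in R 4.3.3 (11 residual and 3.46 prior degrees of freedom), without a signal filter. A gene's spread was taken as common to all groups. P-values were adjusted by Benjamini-Hochberg over all genes at a threshold of 0.05. The test was checked on simulated data with equal spread in all groups and independent values. That check does not cover groups of unequal spread or genes that move together on an array. The number of arrays limits the precision.

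The members and the gene lists were chosen with earlier results of these data known. The text names the 10 members and every list gene that passed. Otherwise it names up to 4 genes of a list or defining markers of T cells and other cells. It also names the 10 genes most like the members, Pdx1, Ikbkb, and dendritic and lymph node genes that did not pass. Il2 was chosen after its value was seen. Lists of intestinal, adipocyte, acinar, macrophage and islet genes served as checks. Alternatives were median centring, quantile normalization, trended robust eBayes, only the 2 groups compared, without the lowest 30% of genes, every cluster, cluster means, array weights, a block for the replicate number, an acinar covariate, and arrays left out; leaving out 3 arrays together was chosen after seeing the data. Promoter windows came from RefSeq.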

Additional observations from a re-analysis of the deposited data

Results flagged for a closer look

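A Dixon test at the 5% level over 126 sets of 4 or 5 arrays, which chance flags in about 1 of 20, found 10 single arrays far from their group. Il2ra read 6.96 on IKK2-CA array 5, against 5.38 to 5.75 on the other 4 IKK2-CA arrays. The dendritic cell markers averaged 1.63 on the same array, against 0.50 to 0.71, and Itgax read 9.36, against 7.29 to 7.80. The adipocyte mean there was 2.42, against −0.58 to −0.07. Intestinal genes averaged 2.79 on Pdx-1+/- array 4, against −0.36 to −0.24 on the others of that group, and 1.17 on control array 3, against −0.39 to −0.28. T-cell identity and homing genes averaged −0.03 on control array 2, against −0.20 to −0.16, and effector cytokines 0.13 on that array, against −0.10 to −0.05. Cd40 read 5.57 and Tlr9 6.85 on Pdx-1+/- array 3, lower than the 6.08 to 6.13 and 7.01 to 7.04 of the other Pdx-1+/- arrays.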

How the results depend on the processing

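In IKK2-CA against control islets 1 member was called; 0 were with quantile normalization (Il2ra adjusted p = 0.0534), only the 2 groups compared (0.0723), every cluster (0.0781), the replicate block (0.0689) or without the lowest 30% of genes, where Il2ra was not tested, and 2 were with array weights. Leaving out single arrays gave 0 to 4. Against Pdx-1+/- islets 0 members were called, but 1, Il2ra, with the acinar covariate, 2 arrays left out or 3 left out; single arrays left out gave 0 to 1. All 10 members kept a positive difference in both IKK2-CA comparisons under every alternative that tested them. Genes called against Pdx-1+/- islets numbered 15 and became 1 with only the 2 groups, 52 with weights, 9 with the block, 50 with the acinar covariate, 52 with 2 and 48 with 3 arrays left out, and 2 to 66 with single arrays left out. Against control islets 448 became 241 with only the 2 groups, 1431 with weights, 197 with the block, 743 with the covariate, 186 with 3 arrays left out, and 120 to 980. In Pdx-1+/- against control islets 19 became 73 with weights, 9 with the block, 11 with 3 arrays left out, and 9 to 48. There, where all members were near 0, signs turned for Cd3e (−0.02 with weights, −0.05 with 2 arrays left out), Cd3d (0 with the block), Cd2 (0.08 with the block, 0.07 with the covariate) and Il2ra (0.07 with the covariate), and with single arrays left out Cd3e ran from −0.05 to 0.18, Cd3d from −0.14 to 0.04, Cd8a from −0.19 to 0.02 and Foxp3 from −0.02 to 0.13. Same-number arrays correlated at −0.26 to 0.19, −0.36 to 0.02 and −0.39 to 0.36 after removing group means (IKK2-CA against control, IKK2-CA against Pdx-1+/-, Pdx-1+/- against control). Arrays with different numbers correlated at −0.41 to 0.27, −0.44 to 0.47 and −0.37 to 0.38. No same-number range reached above that of the other pairs, but these pairs are too few to settle whether the numbers pair arrays. Signal over background was not measured here; 5 of the 10 members, Il2ra among them, lay in the lowest 30% of genes. The causes were not tested.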

Other observations

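Of the genes most like the members, Ltb, which helps to form lymphoid tissue, read 6.17, 6.13, 6.93, 5.76 and 6.95 on IKK2-CA arrays 1 to 5, against 5.63 to 5.97 on the Pdx-1+/- arrays and 5.59 to 5.88 on the control arrays. Slamf6, a receptor of lymphocytes, read 4.70, 5.03, 6.23, 4.6 and 6.95 on IKK2-CA arrays 1 to 5, against 4.22 to 4.91 on the Pdx-1+/- arrays and 4.42 to 4.82 on the control arrays. Both had array 4 lowest of the IKK2-CA group and array 5 highest, as Cd3e did. The mean of the 12 macrophage markers measured was −0.11, 0.14, −0.03, −0.47 and 0.55 on IKK2-CA arrays 1 to 5, with array 4 again the lowest and array 5 the highest but array 3 not high, against −0.09 to 0.20 on the Pdx-1+/- arrays and −0.44 to 0.22 on the control arrays, and 0 passed in limma in any comparison (3 against Pdx-1+/- islets and 2 against control islets at an unadjusted p under 0.05 in IKK2-CA islets). Adgre1, which encodes the macrophage marker F4/80, was at log2 0.05 in IKK2-CA against control islets (SE 0.16, adjusted p = 0.937). Ms4a1, the B-cell antigen CD20, read 4.83, 6.19, 6.87, 4.89 and 7.20 on IKK2-CA arrays 1 to 5, against 5.28 to 6.60 on the Pdx-1+/- arrays and 4.54 to 6.27 on the control arrays, and did not pass in either IKK2-CA comparison (adjusted p = 0.992 against Pdx-1+/- islets and 0.407 against control islets). Of the islet genes checked, 4 of 8 fell in IKK2-CA against control islets, where 1.56% of all genes fell: Sst, Pdx1, Mafa and Slc2a2. In IKK2-CA against Pdx-1+/- islets 0 of the 8 passed in limma, and 0 passed in Pdx-1+/- against control islets. In IKK2-CA, Pdx-1+/- and control islets Slc2a2 averaged 8.81, 9.30 and 10.73, and Mafa 6.65, 6.87 and 7.86. Pdx1 averaged 6.67, 7.14 and 8.23, and Sst 11.90, 12.12 and 12.58.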
